A study of Mus musculus with 10 samples.

Results

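Ribosomal protein processed pseudogenes are copies of ribosomal protein genes that carry the gene's name followed by -ps and a number. In the deposited TPM values of 10 mouse oocytes, 47 of them reached at least 1 TPM in the library where they were highest, out of 295 such names in the files and 35501 genes in all. TPM is an abundance per length of transcript whose total is equal in all libraries. The members were chosen by that level, so their levels are given here as a description. Of the other pseudogenes with such names, 197 were listed at 0 in every library. Among the members, 29 are named after proteins of the large ribosomal subunit and 18 after proteins of the small subunit, and together they belong to 29 parent genes. The annotation lists 39 as processed pseudogenes, 5 as transcribed processed pseudogenes and 3 as protein coding (Rps12-ps3, Rpl9-ps6 and Rpl36a-ps1). Rps10-ps4 stood just inside the level, with 1.12 TPM in its highest library. Rpl30-ps8 and Rpl30-ps11 stood just outside it, each with 0.954 TPM.

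The libraries were single oocytes from ovaries of ICR mice aged 6 to 8 weeks, collected at the germinal vesicle stage, matured in culture for 16 h to metaphase II and amplified with Smart-seq2, a full-length method for single cells. In 5 libraries the oocytes matured with TubA at 0.1 µg/mL for 16 h, and the other 5 were labelled control. The labels write only TubA, a common name for tubastatin A, which inhibits the deacetylase HDAC6. No animal or culture is named for any library, so a p-value here covers the spread from library to library, part of which may be technical. TPM keeps no depth, and the depth of each library is unknown.

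Processed pseudogenes arise when a messenger RNA is reverse transcribed and inserted elsewhere in the genome, without the introns and promoter of its source. Ribosomal protein genes have left many such copies in mammalian genomes, because their messenger RNAs are short and abundant in the germ line, where an insertion is inherited. A young copy can be almost or wholly identical to the exons of its parent, so that short reads match both, whereas an old copy has gathered changes that set its reads apart. A growing oocyte stores messenger RNA and ribosomes for the early embryo, and ribosomal protein messenger RNA is part of that store.

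The members ranged from identical copies to distant ones. By the first transcript that the annotation gives for each, they were 213 to 1279 bases long, with a median of 455 bases. Of the 47, 44 lie on another chromosome than their parent. In alignments with the parent's transcript, identity had a median of 99.2%, and 10 members were identical over their whole length. Each transcript was also cut into all its words of 31 bases, and the share of words that occur in the parent's transcripts was counted. That share was 100% for 10 members, 80% to under 100% for 14, 20% to under 80% for 13 and under 20% for 10. Words were also sought in the 22278 genes above 0 in at least 1 library, and genes at 0 in every library were not searched. In 14 members every word also occurred in some other gene searched. Rpl36-ps1 (ENSMUSG00000081318, chromosome 11, 116504536 to 116504838, plus strand, 303 bases, GRCm38) had the lowest identity of all, 78.1%, against 87.6% for the next lowest. It shared 0.733% of its words with Rpl36, and 271 of its 273 words occurred in no other gene searched.

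The stretches below, from the GENCODE M21 transcripts of GRCm38, show 3 degrees of likeness. They are the sequence of the reference genome, which is of another strain than the ICR mice. Capitals mark the bases that differ between a pseudogene and its parent. The first pair shows Rpl36-ps1 at chr11:116504588-116504672 and the matching 85 bases of the Rpl36 transcript, with 12 differing bases.
Rpl36-ps1: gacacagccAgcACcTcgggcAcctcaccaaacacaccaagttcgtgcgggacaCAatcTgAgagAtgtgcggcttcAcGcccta
Rpl36: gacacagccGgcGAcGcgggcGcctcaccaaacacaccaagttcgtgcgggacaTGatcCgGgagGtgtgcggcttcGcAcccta
A further pair covers Rpl36-ps1 at chr11:116504677-116504783, with 17 differing bases in 107.
Rpl36-ps1: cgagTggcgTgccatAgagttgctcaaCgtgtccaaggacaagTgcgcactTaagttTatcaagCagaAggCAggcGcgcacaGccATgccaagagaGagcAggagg
Rpl36: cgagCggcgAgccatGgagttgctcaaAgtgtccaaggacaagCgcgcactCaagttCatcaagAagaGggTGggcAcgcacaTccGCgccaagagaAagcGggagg
Rps2-ps13, at chrX:52898614-52898703, is a close copy, with 2 differing bases in 90 here and 7 over its whole length.
Rps2-ps13: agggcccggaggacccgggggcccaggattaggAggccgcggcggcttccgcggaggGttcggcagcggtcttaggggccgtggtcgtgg
Rps2: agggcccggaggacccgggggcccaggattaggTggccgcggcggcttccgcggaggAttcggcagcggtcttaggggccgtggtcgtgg
Rpl34-ps1, at chr6:71124696-71124785, has 1 differing base in 90 here and 2 over its whole length.
Rpl34-ps1: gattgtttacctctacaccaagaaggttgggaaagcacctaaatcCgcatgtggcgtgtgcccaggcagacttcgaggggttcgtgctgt
Rpl34: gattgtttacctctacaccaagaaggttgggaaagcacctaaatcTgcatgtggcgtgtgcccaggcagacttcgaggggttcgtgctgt
Rpl15-ps3, on the minus strand at chr9:22186132-22186221, has no base that differs from Rpl15 over its 615 bases, of which the first 90 are printed.
Rpl15-ps3: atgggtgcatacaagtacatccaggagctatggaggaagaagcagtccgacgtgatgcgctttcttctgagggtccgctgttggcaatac

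Levels were carried by a few members. Summed over all 47, the pseudogenes held 803 ± 192 TPM in TubA oocytes and 715 ± 395 TPM in control oocytes (SD, n = 5 each), and the groups overlapped. Rps2-ps13, Rpl10-ps1 and Rps2-ps10 together held 69.9% to 86.6% of that sum in TubA libraries and 62.0% to 88.5% in control libraries. The 29 parent genes summed to 511 ± 138 TPM in TubA oocytes and 579 ± 118 TPM in control oocytes. As a share of members and parents together, the pseudogenes held 55.9% to 63.9% in TubA libraries and 36.7% to 69.4% in control libraries. Over the 10 libraries the parent had the higher mean for 31 members, and the pseudogene had the higher mean for 16.

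Most members were not listed in every oocyte. Only 7 were above 0 in all 10 libraries, 40 (85.1%) were at 0 in at least 1 and 25 were at 0 in 5 or more, while 7 were above 0 in a single library. Among the 14820 genes of the whole table that reached the same 1 TPM, 20.9% were at 0 in at least 1 library, and among 1196 other processed pseudogenes it was 72.7%. These shares are not matched on level. The number of members at 1 TPM or more was 20 to 24 in TubA libraries and 16 to 24 in control libraries. By mean over all libraries, 23 members reached 1 TPM and entered the test below, and 24 did not.

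**Figure D1:**
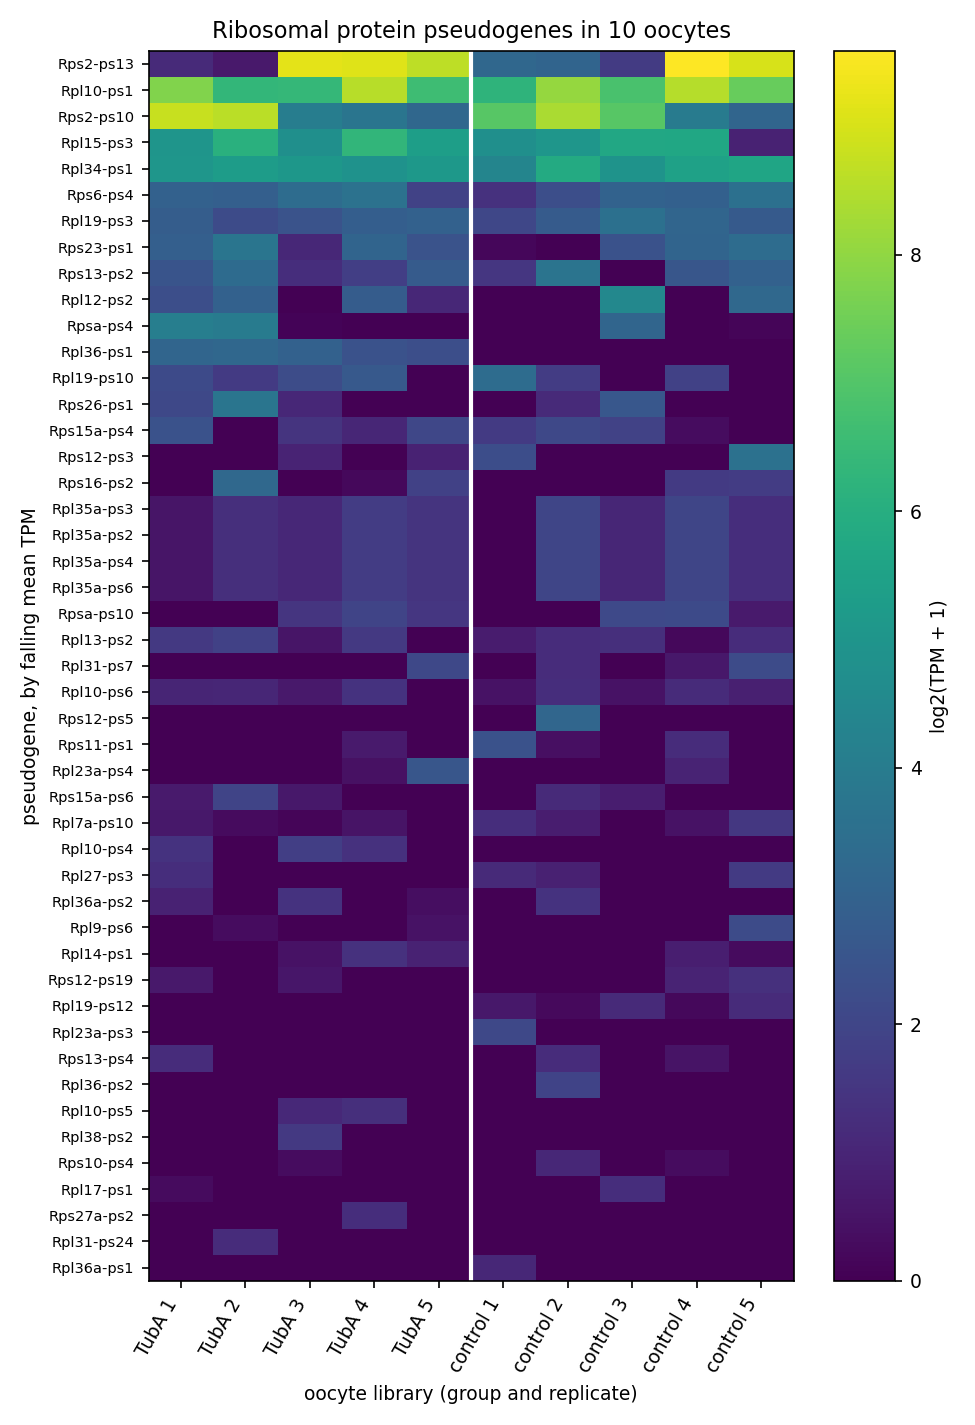
Level of each of the 47 pseudogenes (rows, by falling mean) in each oocyte library (columns, TubA left of the white line, control right of it), as log2(TPM + 1). Rpl36-ps1 is above 0 in every TubA library and at 0 in every control library, Rpl19-ps12 shows the opposite, and 40 rows have at least 1 library at 0.

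Rpl36-ps1 was higher in TubA oocytes and was the 1 gene of the 11664 tested (limma, mean of at least 1 TPM) to pass the threshold, an adjusted p under 0.05. Its level was 7.75, 8.20, 6.83, 4.30 and 3.93 TPM in TubA replicates 1 to 5, and it was listed at 0 in all 5 control libraries. Thus the groups did not overlap, and since every control value was 0, the pseudogene met both the level of 1 TPM and the filter on the mean through its TubA libraries alone. On the log2(TPM + 1) scale the difference was 2.80, with a standard error of 0.27 and a 95% interval of 2.21 to 3.39 (limma adjusted p = 0.0024, higher in 5 of 5 TubA libraries). The control values, all at 0, had no spread, so of its own values only those of the TubA libraries added spread to that error. The limma error also draws on the spread of the other genes tested. The p-value thus does not measure a spread of Rpl36-ps1 among control oocytes. With the replicate number of the labels as a block Rpl36-ps1 did not pass (limma adjusted p = 0.092). Genes past this threshold made up 0.00857% of those tested, and no fold is given against a group listed at 0.

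The parent overlapped between the groups. Rpl36, which encodes a protein of the large subunit, had 7.41, 0.64, 4.59, 10.4 and 0 TPM in TubA replicates 1 to 5, against 0.65, 1.27, 10.9, 6.41 and 9.86 TPM in control replicates 1 to 5. Both groups held high and low libraries, and the log2 difference was -0.41 with a 95% interval of -2.06 to 1.24 (limma adjusted p = 0.9999). TubA replicate 5 was listed at 0 for Rpl36 and at 3.93 TPM for Rpl36-ps1. The other named copy, Rpl36-ps2, which shares 78.6% of its words with Rpl36, was listed at 0 in every TubA library and at 2.80 TPM in control replicate 2 alone. Summed over Rpl36 and both pseudogenes, the family stood at 10.8 ± 4.63 TPM in TubA oocytes and 6.39 ± 4.21 TPM in control oocytes (SD, n = 5 each), a log2 difference of 0.85 (limma adjusted p = 0.9999). Copies with other names are Gm13611, which holds 62.0% of the words of Rpl36, and Gm5745, with 20.7%. With both added, the sum in TubA replicate 5 was 15.2 TPM in place of 3.93 TPM. That sum stood at 13.3 ± 2.38 TPM in TubA oocytes and again at 6.39 ± 4.21 TPM in control oocytes.

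No annotated gene overlaps Rpl36-ps1. The nearest gene on the side of lower coordinates, Prpsap1, lies 10334 bases away on the other strand, with 53.8 ± 48.8 TPM in TubA oocytes and 40.8 ± 20.3 TPM in control oocytes. Of the 14820 genes that reached 1 TPM, Rpl36-ps1 was the only gene at 0 in all control libraries and above 0 in all TubA libraries (0.00675%). Within the 2 sets of libraries described below, the log2 difference was 3.17 in one (2 TubA and 3 control libraries) and 2.56 in the other (3 TubA and 2 control libraries).

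The genes with the pattern most like Rpl36-ps1 over the 10 libraries were Nif3l1 (Pearson r = 0.93 of log2 values), Olfr111 (0.89), an olfactory receptor gene, and Samd10 (0.85). The groups did not overlap for Nif3l1 and Olfr111, so r mainly describes the step between groups there. For Samd10 they overlapped, with 32.0 TPM in TubA replicate 4 and 32.6 TPM in control replicate 5. Nif3l1 had 17.5, 21.3, 12, 13.4 and 11.6 TPM in TubA replicates 1 to 5, against 7.15, 6.57, 7.51, 8.47 and 6.29 TPM in control replicates 1 to 5.

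Rpl19-ps12 was the only gene at 0 in all TubA libraries and above 0 in all control libraries, again out of 14820 (0.00675%). It was listed at 0 in TubA replicates 1 to 5, against 0.530, 0.178, 1.19, 0.165 and 1.26 TPM in control replicates 1 to 5. It met the level of 1 TPM through control libraries alone, and its mean lay under 1 TPM, so it was not tested with the others. In a fit without that filter its log2 difference was -0.68 and did not pass (limma adjusted p = 0.99, unadjusted p = 0.0073). This copy of Rpl19, a gene for a large subunit protein, shares 30.3% of its words with the parent and lies on the X chromosome (6071222 to 6071812, plus strand) in an intron of Gm26618, over an annotated microRNA, Gm27360. Its neighbour 9407 bases away on the other strand, AU022751, had 4419 ± 469 TPM in TubA oocytes and 5021 ± 595 TPM in control oocytes, so even the highest level of Rpl19-ps12 was small beside it. Rpl19-ps12 and Rpl36-ps1 were the 2 members, out of 47, whose groups did not overlap, while such genes made up 0.459% of the 14820. Both entered the list through the group where they are high, and the shares are not matched on level, so no excess is read from them.

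**Figure D2:**
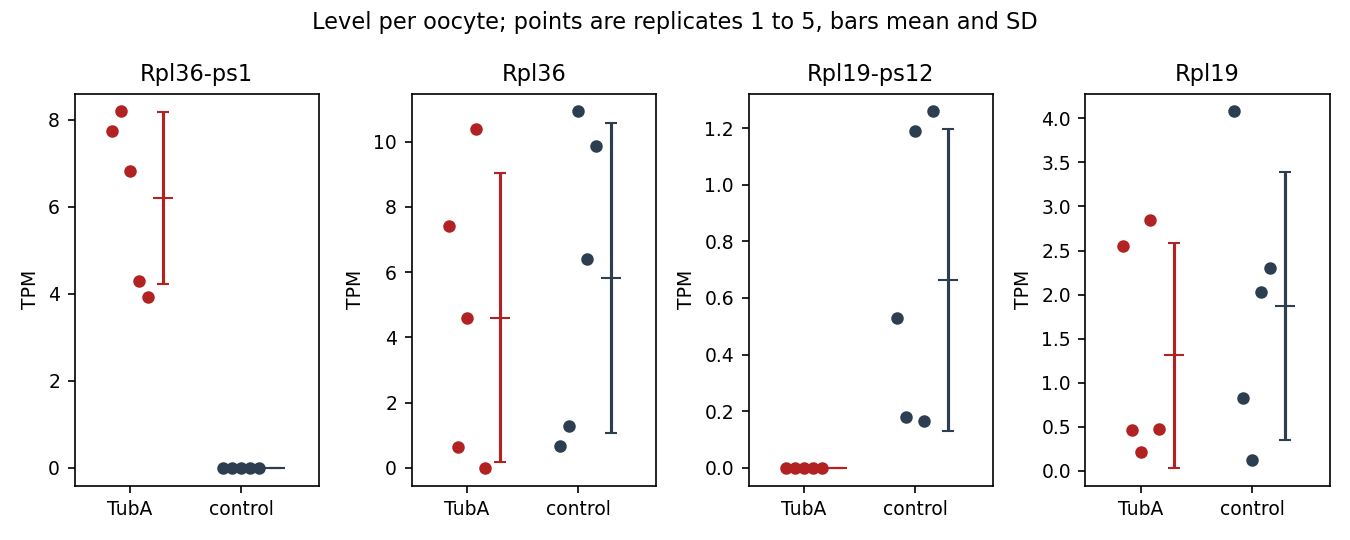
TPM of Rpl36-ps1, its parent Rpl36, Rpl19-ps12 and its parent Rpl19 in each oocyte (points, replicates 1 to 5 from left to right; bars are mean and SD, n = 5), TubA left of control. Rpl36-ps1 spans 3.93 to 8.20 TPM in TubA libraries and is at 0 in all control libraries, Rpl19-ps12 is at 0 in all TubA libraries, and both parents overlap between the groups.

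Among the 23 members tested, 1 was higher past the threshold and 0 were lower, and the same counts held at an unadjusted p under 0.05, where 2.51% of all genes lay. Their differences were positive for 13 and negative for 10, with a median of 0.18, against 0.01 over all genes tested. The 4 Rpl35a copies have identical values, and counted once they leave 13 positive and 7 negative differences, with a median of 0.25. For the 12 large subunit members tested the median was -0.05, or 0.18 over 9 values with these copies counted once, and for the 11 small subunit members it was 0.33. The members varied more than most genes: the median standard error of their differences was 0.57, against 0.33 over all genes tested. Without the filter on the mean, all 47 members could be tested and Rpl36-ps1 again passed alone. At an unadjusted p under 0.05 it was joined by Rpl10-ps4 (higher) and Rpl19-ps12 (lower), 3 of 47 members, against 2.46% of all genes in that fit. These shares are not matched, since the 22278 genes of that fit needed only a value above 0 in 1 library. All 3 members met the level of 1 TPM through 1 group alone. Rpl10-ps4, named here after its values were seen, had 1.66, 0, 2.40, 1.56 and 0 TPM in TubA replicates 1 to 5, and was listed at 0 in all control libraries, so it met the level of 1 TPM through TubA libraries alone.

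None of the 26 parent genes tested passed the threshold (limma), and 2 had an unadjusted p under 0.05. They were Rpl34, with a log2 difference of 1.60, and Rps2, with -4.50. The median over the 26 was 0.11. Among 79 genes for cytosolic ribosomal proteins, 71 were tested and 0 passed, with 30 differences positive and 41 negative and a median of -0.08. At an unadjusted p under 0.05 they held Rpl34 as higher and Rps2 and Rps28 as lower.

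**Figure D3:**
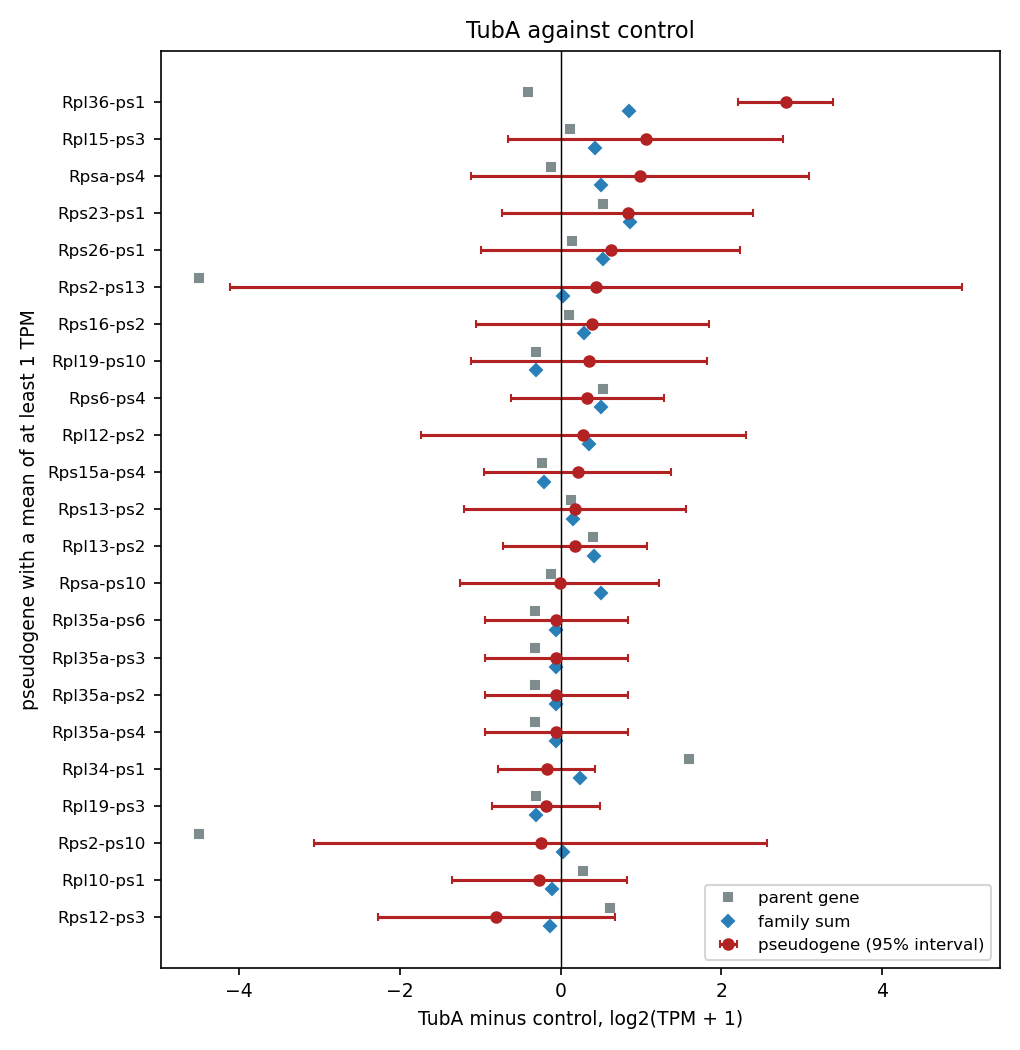
Difference in log2(TPM + 1), TubA minus control, for the 23 pseudogenes tested (red, limma estimate with 95% interval), with the parent gene (grey square, where tested) and the sum of the family (blue diamond). Only the interval of Rpl36-ps1, 2.21 to 3.39, lies clear of 0, and the widest are those of Rps2-ps13 and Rps2-ps10.

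The Rps2 family divided the oocytes by pseudogene. RPS2 is a protein of the small subunit near the entry of the messenger RNA channel. Rps2-ps13 lies on the X chromosome (52898588 to 52899469, plus strand) and had 1.20, 0.58, 588, 556 and 398 TPM in TubA replicates 1 to 5, against 8.22, 7.46, 2.20, 771 and 517 TPM in control replicates 1 to 5. Rps2-ps10 lies on chromosome 18 in an intron of Pde6a, on the other strand, and had 446, 391, 15.8, 12.4 and 8.32 TPM in TubA replicates 1 to 5, against 135, 328, 136, 15.0 and 7.76 TPM in control replicates 1 to 5. So each oocyte had one of the copies high and the other low, in both groups.

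The parent was low in all TubA oocytes and in control replicates 4 and 5. Rps2 had 0.56, 0.71, 0.75, 1.43 and 0.97 TPM in TubA replicates 1 to 5, against 129.6, 271, 176, 3.22 and 4.03 TPM in control replicates 1 to 5. The groups did not overlap, and control replicates 1 to 3 stood far above all other libraries. The log2 difference was -4.50, with a standard error of 1.09, and did not pass (limma adjusted p = 0.9999, unadjusted p = 0.0013). As a share of Rps2 and these 2 copies, the parent held 0.125% to 0.251% in TubA libraries and 0.408% to 56.0% in control libraries.

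The sum of the 3 genes was far more even than its parts. It was 447, 392, 604, 569.8 and 407 TPM in TubA replicates 1 to 5, against 273, 606, 314, 789.5 and 528 TPM in control replicates 1 to 5. That is 484 ± 96.8 TPM in TubA oocytes and 502 ± 213 TPM in control oocytes, and the log2 difference of the sum was 0.04 with a 95% interval of -0.57 to 0.65 (limma adjusted p = 0.9999). Rps2-ps13 shares 77.9% of its words with Rps2 and 92.7% with Rps2-ps10, and 47 of its 852 words occur in no other gene searched. For Rps2-ps10 the share with Rps2 was 82.1%, and 27 of 935 words were its own. How the authors' program divided reads between such copies was not tested.

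The split in the Rps2 copies ran with a grouping of the libraries into 2 sets. Libraries were clustered by complete linkage on their correlations over the genes tested, and the tree was cut at 2 sets. Set A held TubA replicates 1 and 2 and control replicates 1 to 3. Set B held TubA replicates 3 to 5 and control replicates 4 and 5. Such a cut returns 2 sets for any values, so whether the libraries form distinct sets was not tested. The sets come from the same values, those of the Rps2 copies among them, and are not a label of the submitters. Rps2-ps13 spanned 0.58 to 8.22 TPM in set A and 398 to 771 TPM in set B, while Rps2-ps10 spanned 135 to 446 TPM in set A and 7.76 to 15.8 TPM in set B. Of all genes tested, 5.14% separated the sets without overlap, as did 2 of the 23 members tested, and the part of the sets in these levels was not tested. Within set A, Rps2 differed by -6.82 on the log2 scale (2 TubA and 3 control libraries), and within set B by -1.18 (3 TubA and 2 control libraries).

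**Figure D4:**
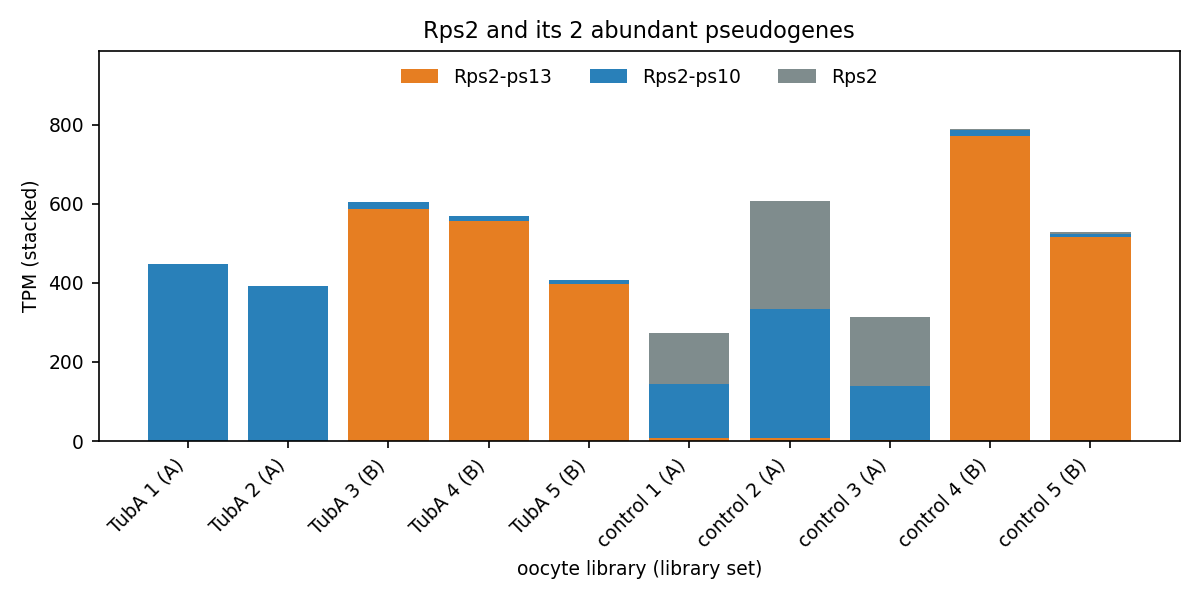
Stacked TPM of Rps2-ps13 (orange), Rps2-ps10 (blue) and their parent Rps2 (grey) in each oocyte library, TubA left of control, with the library set (A or B) in brackets. Set A bars are almost wholly Rps2-ps10 in TubA replicates 1 and 2 and a mix of Rps2-ps10 and Rps2 in control replicates 1 to 3, and set B bars are 97.3% to 97.8% Rps2-ps13.

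Of the large subunit members, Rpl10-ps1 was the most abundant. RPL10 joins the large subunit late in its assembly, and all 645 bases of Rpl10-ps1 are identical to part of its transcripts, so the pseudogene has no word of its own. Rpl10-ps1 had 216, 80.4, 83.6, 376 and 97.2 TPM in TubA replicates 1 to 5, against 74.6, 266, 113, 365 and 162 TPM in control replicates 1 to 5. Both groups held high and low libraries, and the log2 difference was -0.26, with a 95% interval of -1.35 to 0.83. Together with 3 other pseudogenes it held 62.9% to 74.2% of the Rpl10 family in TubA libraries and 74.8% to 80.2% in control libraries, and these shares did not overlap between the groups and were not tested. The parent stood at 72.8 ± 50.9 TPM in TubA oocytes and 62.5 ± 41.5 TPM in control oocytes.

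Rpl15-ps3, the identical copy printed above, had 30.8, 66.4, 26.2, 77.8 and 40.3 TPM in TubA replicates 1 to 5, against 26.2, 32.2, 53.5, 51.1 and 0.88 TPM in control replicates 1 to 5. The log2 difference was 1.06, with a 95% interval of -0.65 to 2.77, and without control replicate 5 it was 0.18. In that library the parent Rpl15 stood at 25.4 TPM, within its range of 20.3 to 39.6 TPM over all libraries. Summed with all genes that hold at least 20% of the words of Rpl15, control replicate 5 had 74.7 TPM, against 65.8 to 84.4 TPM in the other control libraries, so it no longer stood apart.

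Rpl34-ps1 was the steadiest of the abundant members in TubA oocytes. It had 32.0, 38.2, 33.1, 28.9 and 33.3 TPM in TubA replicates 1 to 5, against 19.5, 57.8, 29.2, 43.6 and 49.2 TPM in control replicates 1 to 5. The log2 difference was -0.17, with a 95% interval of -0.77 to 0.43. Its parent had 16.2, 21.7, 32.7, 21.8 and 21.4 TPM in TubA replicates 1 to 5, against 1.18, 6.03, 1.12, 27.6 and 27.3 TPM in control replicates 1 to 5. The 3 low control libraries of Rpl34 were those of set A, and its log2 difference was 2.63 within set A and -0.14 within set B. Pseudogene and parent together gave a log2 difference of 0.24 (limma adjusted p = 0.9999).

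Rpl19-ps3 was the 1 member with under 20% of its words in the parent that was above 0 in all 10 libraries. It is annotated with 3 transcripts and shares 1.10% of its words with Rpl19, and 2768 of its 2830 words occur in no other gene searched. Its alignment with Rpl19 covers 701 bases, from base 1049 to 1748 of 1 transcript, at 91.0% identity. Its words thus include sequence outside the copy, and which part its level came from was not tested. It had 6.02, 3.51, 4.45, 6.30 and 6.93 TPM in TubA replicates 1 to 5, against 3.15, 5.80, 10.5, 7.78 and 5.52 TPM in control replicates 1 to 5. The groups overlapped, with a log2 difference of -0.18 and a 95% interval of -0.86 to 0.50. The parent Rpl19 was lower, at 1.31 ± 1.28 TPM in TubA oocytes and 1.87 ± 1.52 TPM in control oocytes.

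Rpl12-ps2, a copy of the gene for a protein at the base of the ribosomal stalk, was above 0 in some oocytes and listed at 0 in others. It had 3.88, 6.94, 0, 5.90 and 1.09 TPM in TubA replicates 1 to 5, against 0, 0, 21.2, 0 and 8.36 TPM in control replicates 1 to 5. It shares 13.4% of its words with Rpl12, and Rpl12 itself stayed at 0.326 ± 0.482 TPM in TubA oocytes and 0.219 ± 0.210 TPM in control oocytes. The log2 difference of the pseudogene was 0.28, with a 95% interval of -1.73 to 2.30.

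The Rpl35a pseudogenes show what identical copies look like in these values. Rpl35a-ps2, Rpl35a-ps3, Rpl35a-ps4 and Rpl35a-ps6 have 1 and the same sequence, and their levels were equal in every library. Each had 0.45, 1.43, 1.07, 2.30 and 1.74 TPM in TubA replicates 1 to 5, against 0, 3.0, 1.06, 3.03 and 1.36 TPM in control replicates 1 to 5. They differ from Rpl35a at 1 base of 333, and these 4 members thus carry 1 measurement among them, with a log2 difference of -0.05.

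After the Rps2 copies, the 3 small subunit members of highest mean were identical copies of their parents. Rps6-ps4 copies the gene for RPS6, which the S6 kinases phosphorylate. It had 6.95, 6.48, 9.60, 11.3 and 2.73 TPM in TubA replicates 1 to 5, against 1.55, 3.93, 7.10, 6.60 and 10.7 TPM in control replicates 1 to 5. The log2 difference was 0.33, with a 95% interval of -0.62 to 1.29, and that of its parent Rps6 was 0.53.

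Rps23-ps1 copies the gene for a protein of the decoding centre. It had 6.56, 12.4, 1.11, 7.50 and 4.48 TPM in TubA replicates 1 to 5, against 0.14, 0, 4.41, 7.45 and 9.51 TPM in control replicates 1 to 5, with a log2 difference of 0.84 and a 95% interval of -0.72 to 2.40. It overlaps an exon of Gm5148 on the other strand, and without a statement on strand the reads of both cannot be told apart. Rps13-ps2 had 4.59, 9.27, 1.40, 2.48 and 5.83 TPM in TubA replicates 1 to 5, against 1.88, 12, 0, 4.89 and 6.84 TPM in control replicates 1 to 5. It overlapped between the groups, with a log2 difference of 0.18 and a 95% interval of -1.20 to 1.56, and that of its parent Rps13 was 0.14.

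Rpsa-ps4 copies the gene for RPSA, a small subunit protein also known as a laminin receptor, and shares 39.7% of its words with it. It had 16.2, 14.9, 0.08, 0 and 0 TPM in TubA replicates 1 to 5, against 0, 0, 7.81, 0 and 0.09 TPM in control replicates 1 to 5. All 3 high libraries belong to set A, although 2 libraries of that set were at 0. The log2 difference was 0.99, with a 95% interval of -1.12 to 3.09.

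Rps12-ps3, which is annotated as protein coding and is identical to Rps12, had 0.92 and 0.89 TPM in TubA replicates 3 and 5, against 3.77 and 11.0 TPM in control replicates 1 and 5. In the other libraries it was at 0 or, in TubA replicate 1 and control replicate 2, at 1.2e-06 and 5.7e-05 TPM. Its log2 difference of -0.80, with a 95% interval of -2.27 to 0.68, was the lowest among the members tested. That of the Rps12 family sum was -0.13.

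**Figure D5:**
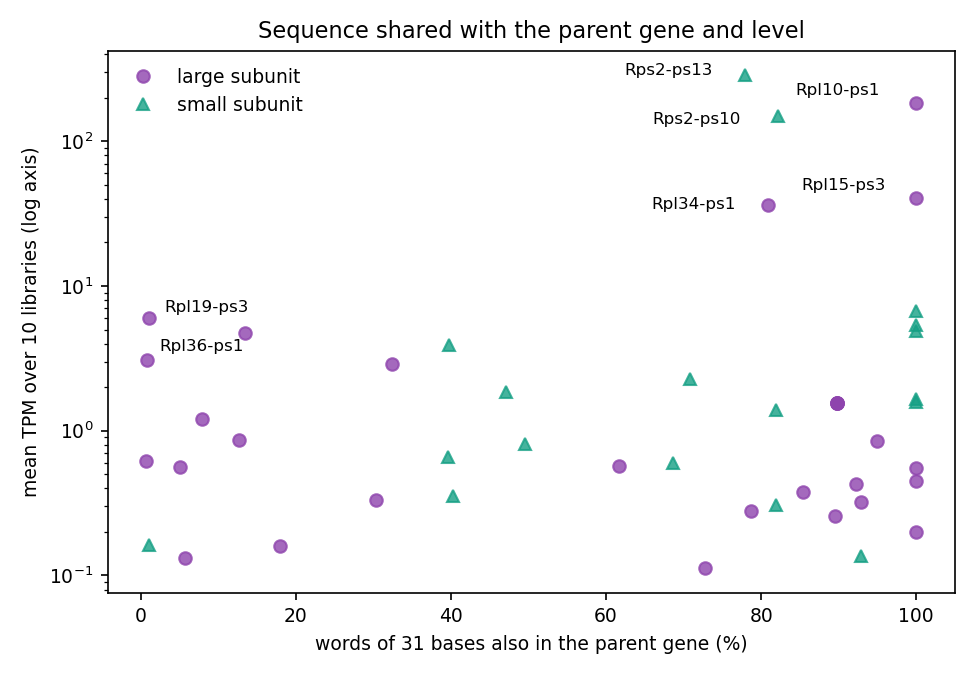
Mean TPM over the 10 libraries (log axis) against the share of each pseudogene's words found in its parent too, for 47 members (circles large subunit, triangles small subunit; the 4 Rpl35a copies coincide). The 5 members with a mean of at least 10 TPM all share at least 77.9% of their words with the parent, while Rpl36-ps1 and Rpl19-ps3 lie at the left edge.

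By likeness to the parent, the 10 members with every word in the parent had means of 0.201 to 183 TPM, with a median of 3.29 TPM. The 27 with 20% to under 100% spanned 0.112 to 285 TPM, with a median of 0.808 TPM, and the 10 with under 20% spanned 0.132 to 6.00 TPM, with a median of 0.741 TPM. In the class with under 20% of words in the parent 4 members were tested, Rpl36-ps1, Rpl19-ps3, Rpl12-ps2 and Rpl13-ps2. Rpl36-ps1 passed, and the others had log2 differences of -0.18, 0.28 and 0.18.

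The pseudogenes of each family were also added to their parent. Of 29 family sums, 0 passed the threshold (limma; 0% of the 11644 features of that fit passed), and 0 had an unadjusted p under 0.05, against 2.49% of all features. Their differences ran from -0.39 to 0.86, with a median of 0.13. These sums leave out close copies with other names, so reads may still be divided. When all other listed genes with at least 20% of the parent's words were added too, 0 passed. The Rpl36 family had the lowest p, with a log2 difference of 1.23 (limma adjusted p = 0.9999, unadjusted p = 0.023). The difference of the Rps23 family was -0.25 in place of 0.86, but that sum takes in Gm10689, with a mean of 68.9 TPM, against 1.31 TPM for Rps23. Not all genes added are named as ribosomal copies. Tbc1d8, with 22.6% of the words of Rpl31 and a mean of 70.4 TPM, brought the mean Rpl31 sum from 11.1 to 81.5 TPM. Such sums can thus mostly hold the level of a single added gene.

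By place in the genome, 26 members overlap another annotated gene and 21 overlap none. Of the 26, 22 lie in introns only and 4 overlap an exon. In introns of protein-coding genes lie 20 members, 6 on the strand of that gene and 14 on the other. Rpl10-ps5, in an intron of Nup93 on the same strand, had 1.13 and 1.44 TPM in TubA replicates 3 and 4 and was at 0 in the other 8 libraries, while Nup93, a gene of the nuclear pore, had 97.1 to 190 TPM in TubA libraries and 88.4 to 172 TPM in control libraries. Rps10-ps4, the member just inside the level, lies in an intron of Polr1d on the other strand.

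The libraries had the transcripts of oocytes. The 10 oocyte markers summed to 27295 to 41431 TPM in TubA libraries and 26755 to 38767 TPM in control libraries. Of 9 markers of cumulus and granulosa cells, 7 were above 0 in at least 1 library, and Amh and Foxl2 were at 0 throughout. The highest of the 9 was Cyp19a1, with a mean of 11.6 TPM over all libraries. Their sum was 16.2 to 31.6 TPM in TubA libraries and 11.8 to 33.5 TPM in control libraries. Markers of theca and stroma (6 genes) summed to 4.05 to 13 TPM in TubA libraries and 3.17 to 17.3 TPM in control libraries. Markers of blood, immune and endothelial cells (7 genes) summed to 41.9 to 82.8 TPM in TubA libraries and 30.7 to 79.9 TPM in control libraries. Pecam1 was the highest of these 7 genes, with a mean of 26.0 TPM over all libraries.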

How the data were processed

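The authors deposited 1 table per library with TPM per Ensembl transcript, read as such because each table has the same total. Bowtie 0.12.2 and mm10 are named in the submitters' processing notes. Not given in the sources used here are the program behind the abundances and whether strand was kept. Transcripts were summed to genes with GENCODE M21 (GRCm38), which matched 113492 of 115270. The unmatched held 0.531% to 0.753% of TPM. No files were identical. Pseudogenes were aligned to their parents with BLASTN 2.17.0. Differences are TubA minus control in limma 3.58.1 (R 4.3.3, trend and robust) on log2(TPM + 1), for 11664 genes (mean over libraries of 1 TPM or more), with all 10 libraries, Benjamini-Hochberg adjusted over all genes at 0.05. This scale understates changes of low genes. The fit was tested on simulated data. Tables and figures used Python 3.11.15, pandas 2.3.3, numpy 2.4.6, scipy 1.17.1 and matplotlib 3.10.9.

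The members, lists and tests were chosen with earlier results of these data known. Named genes are Rpl36-ps1, members past the threshold, the 12 members of highest mean, those without overlap, the 5 of smallest p, those beside the level of 1 TPM, and the parents of these. Alternatives were 2 other pseudocounts, 2 filters, 2 scalings, library weights, a replicate block, the library set, leaving out each library, and, chosen after seeing the data, sums with sequence copies.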

Additional observations from a re-analysis of the deposited data

Results flagged for a closer look

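In 8 of 82 groups of 5 libraries examined, 1 library stood far from the others by Dixon's test. The test's chance rate of about 1 in 20 groups holds for independent, normally spread values. Here many TPM values are 0 and some groups share genes, so the 8 groups cannot be set against that rate. Rpsa-ps4 had 7.81 TPM in control replicate 3, against 0.0881 TPM in the next control library, and this library also set the Rpsa family sum apart, at 13.8 TPM. Rps10-ps4 had 0.256 TPM in TubA replicate 3, with the other TubA libraries at 0, and 1.12 TPM in control replicate 2. TubA replicate 4 stood high for 2 parents and 1 family: Rps23 at 5.54 TPM, Rps13 at 49.0 TPM and the Rps13 family sum at 51.4 TPM. Rps12 had 22.9 TPM in control replicate 4, against 6.28 TPM in the next control library.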

How the results depend on the processing

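Rpl36-ps1 was the 1 gene, and the 1 pseudogene, past the threshold under the other pseudocounts (limma adjusted p = 0.0029 at 0.1 and 0.040 at 0.01), without the mean filter, under both other scalings, with library weights, with the library set as a term, and without each library in turn (1 to 1 in both counts, adjusted p from 0.0052 to 0.019). Both counts were 0 with a mean of at least 5 TPM, which leaves Rpl36-ps1 out by construction, and 0 with the replicate block, where its difference stayed at 2.80 (limma adjusted p = 0.092). The labels do not say what the replicate numbers share. Deviations of same-numbered libraries had correlations of 0.003, -0.005, -0.31, 0.48 and 0.26 for replicates 1 to 5. TubA replicates 4 and 5 alone correlated best with the control of their number. So few correlations cannot decide whether the numbers mark pairs, and it stays unknown which of the fits with and without the block is the right one. The count of families was 0 throughout.

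No reversed difference belonged to a gene past the threshold, and their causes were not tested. With library weights these were Rps2-ps13 (-0.46), Rps13-ps2 (-0.22), Rpl10 (-0.32), Rps13 (-0.35), Rps10 (-0.024), and the family sums of Rps2 (-0.26), Rpl34 (-0.031), Rps13 (-0.34) and Rps10 (-0.076). With the library set as a term these were Rps2-ps13 (-1.04), Rps2-ps10 (0.65), Rps13 (-0.14), and the family sums of Rps2 (-0.074) and Rps13 (-0.025). With sequence copies the Rps23 family sum was -0.25. Leaving out each library gave ranges across 0 for Rps2-ps13 (-0.47 to 1.71), Rpl10-ps1 (-0.62 to 0.015), Rps2-ps10 (-1.03 to 0.37), Rps13-ps2 (-0.35 to 0.57), Rpl12-ps2 (-0.10 to 1.02), Rpl36 (-0.82 to 0.081), Rpl10 (-0.076 to 0.58), Rps13 (-0.37 to 0.48) and Rpsa (-0.32 to 0.0082), and for the family sums of Rps2 (-0.15 to 0.23), Rpl10 (-0.45 to 0.18), Rpl34 (-0.040 to 0.42), Rps13 (-0.30 to 0.43), Rpl12 (-0.058 to 1.07) and Rps12 (-0.41 to 0.15). Taking 0.5 or 2 TPM as the level gave 68 or 34 members. TPM keeps no depth, so a value of 0 cannot be given a limit.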
